A study of Mus musculus with 6 samples.

Results

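CA3 pyramidal cell markers were followed in the hippocampus of daDREAM transgenic mice and their wild type littermates. The members were 10 genes (Iyd, Rnf182, Cpne4, Cpne7, St18, Coch, Socs2, Nectin3, Prkcd and Elavl2), and every probe set annotated to exactly 1 of these symbols was taken. All 10 genes were found, with 29 of the 45037 probe sets tested (10 of 18193 genes). The 6 arrays were all of the same Affymetrix mouse genome array type. Of these, 3 measured L26 hippocampus, of adult male mice homozygous for the daDREAM transgene, and 3 hippocampus of wild type littermates. All mice were on a C57B6xCBA background. The labels do not say whether each array is 1 animal or a pool. The submitters call the 3 hybridizations of each group independent biological replicates. DREAM, the product of Kcnip3, is a calcium-binding transcriptional repressor, and daDREAM is a dominant active mutant of it. L26 is a single transgenic line, and the promoter that drives the transgene is not given in the sources used here.

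CA3 is the hippocampal field that receives the mossy fibres of the dentate granule cells and sends the Schaffer collaterals to CA1. Its pyramidal cells are tied together by dense recurrent connections, which are studied for their part in associative memory and in seizure spread. Genes such as those followed here are used to tell CA3 from CA1 and the dentate gyrus in sections, although several are also expressed elsewhere, such as Prkcd in the thalamus and Elavl2 in many neurons. The arrays measured whole hippocampus. In such bulk RNA a lower marker level from fewer cells of a type and one from less RNA per cell cannot be told apart, and the CA3 location of a signal cannot be checked.

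In L26 hippocampus Iyd was 1.86-fold higher than in wild type hippocampus, and both probe sets of Rnf182 were higher, by 1.23-fold and 1.30-fold. Cpne4 gave opposite results, with its brighter probe set 1.23-fold lower and its dim one 1.26-fold higher. For Nectin3, 1 of 6 probe sets was lower, by 1.28-fold. No probe set of Cpne7, St18, Coch, Socs2, Prkcd or Elavl2 passed the threshold, an adjusted p below 0.05 in limma with Benjamini-Hochberg adjustment over all probe sets tested. In all, 4 of the 29 probe sets rose, 2 fell and 23 did not pass, against 3.92% of all probe sets that passed in either direction, 1.98% higher and 1.94% lower. The 3 L26 values all lay above the 3 wild type values for 9 member probe sets and all below for 6, against 12.5% and 9.32% of all probe sets (21.9% with no overlap of the groups). An unadjusted p below 0.05 was found for 15 of the 29, against 18.1% of all probe sets (19.1% of genes by their brightest probe set). The counts of calls were smaller in every fit with 1 array left out, which has fewer arrays, and so were those over all probe sets. Over all probe sets 892 were higher and 872 lower with all arrays. Without L26 replicate 1 these were 787 and 643, and without L26 replicate 3 they were 356 and 454. Without L26 replicate 3 only 1 probe set (that of Iyd) was called higher, and without any other single array 2 were. The number called lower was 0 without L26 replicate 1, wild type replicate 1 or wild type replicate 2, and 1 without any other single array.

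For the 2 members whose probe sets all rose, Iyd and Rnf182, and for Cpne4, whose probe sets moved in opposite directions, the RefSeq sequence (GRCm38.p6) before an annotated start is shown, because DREAM binds DNA elements with a GTCA core. The stretches are chr10:3540024-3540273 for Iyd, chr13:43615547-43615732 for Rnf182, cut at the earliest annotated start of the gene, and chr9:104569405-104569654 and chr9:104587808-104588057 for the 2 Cpne4 starts in the table, all on the plus strand. Capitals mark GTCA or its reverse complement TGAC.
Iyd: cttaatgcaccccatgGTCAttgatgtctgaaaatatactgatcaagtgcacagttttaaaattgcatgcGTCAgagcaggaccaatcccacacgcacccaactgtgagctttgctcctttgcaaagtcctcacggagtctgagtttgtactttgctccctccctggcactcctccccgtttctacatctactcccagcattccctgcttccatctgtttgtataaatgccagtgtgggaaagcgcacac
Rnf182: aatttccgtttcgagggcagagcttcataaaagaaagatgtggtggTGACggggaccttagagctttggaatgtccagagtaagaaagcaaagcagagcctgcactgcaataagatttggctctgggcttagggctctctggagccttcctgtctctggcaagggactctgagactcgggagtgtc
Cpne4, first start: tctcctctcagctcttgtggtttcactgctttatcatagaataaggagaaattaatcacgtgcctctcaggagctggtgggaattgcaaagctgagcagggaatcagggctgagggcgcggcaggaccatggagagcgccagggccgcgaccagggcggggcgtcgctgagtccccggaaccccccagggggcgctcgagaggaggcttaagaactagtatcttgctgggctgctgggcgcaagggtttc
Cpne4, second start: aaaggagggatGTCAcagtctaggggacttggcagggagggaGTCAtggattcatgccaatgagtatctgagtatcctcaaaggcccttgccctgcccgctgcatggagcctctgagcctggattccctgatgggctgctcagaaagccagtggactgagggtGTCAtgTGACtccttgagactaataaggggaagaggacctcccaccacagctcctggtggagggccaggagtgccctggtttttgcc
The shown stretch had 2 matches for Iyd, 1 for Rnf182, 0 at the first Cpne4 start and 4 at the second. So short a core is common. In windows of 300 bases, from 250 before to 50 after a start, 85.2% of 32851 mouse windows held GTCA on either strand, with a median of 2 matches. Among the members 11 of 14 windows, of 7 genes, held it (Iyd, Rnf182, Cpne4, Prkcd and Elavl2, but neither Coch nor Nectin3). Several of the Elavl2 windows overlap, so the 14 are not separate stretches. The longer form GTCAAGG was in 3.18% of all windows and in 0 of the 14, and the cyclic AMP response element TGACGTCA, which itself contains GTCA, in 1.79% and also in 0. Which Cpne4 start each probe set reads is not known from the tables used here. A match describes letters only.

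Iyd encodes iodotyrosine deiodinase, known from the thyroid, where it recovers iodide from iodotyrosines. Its only probe set, 1451547_at, read 7.44, 7.60 and 7.56 in L26 hippocampi, against 6.70, 6.43 and 6.78 in wild type hippocampi, on the log2 scale of the deposited values. By its mean over the arrays it lay at the 46.4 percentile of all probe sets, and no detection calls exist. The groups did not overlap, and the lowest L26 array lay above the highest wild type array by more than the range within either group. The difference was 0.90 (SE 0.09, 95% interval 0.69 to 1.10, limma adjusted p = 0.000858). It passed in all 14 alternative analyses, with differences from 0.79 to 0.97 and adjusted p-values from 0.000198 to 0.00828. Over all probe sets that passed, the median size of the difference was 0.41.

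Rnf182 encodes a RING finger E3 ubiquitin ligase. Probe set 1440086_at read 10.38, 10.31 and 10.27 in L26 and 9.91, 10.07 and 10.09 in wild type hippocampi. Probe set 1434982_at read 9.34, 9.14 and 9.16 in L26 and 8.85, 8.75 and 8.89 in wild type hippocampi. Every L26 value of both probe sets was above every wild type value. The differences were 0.30 (SE 0.07, limma adjusted p = 0.042) and 0.38 (SE 0.07, adjusted p = 0.0189). The first call was lost without any 1 of the 6 arrays (differences 0.24 to 0.33, adjusted p-values 0.0647 to 0.118) and with arrays centred on their medians (adjusted p = 0.0589). The second was lost without wild type replicate 2 (adjusted p = 0.0677) or L26 replicate 3 (adjusted p = 0.0575). Both differences stayed positive in every analysis that was run.

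**Figure D1:**
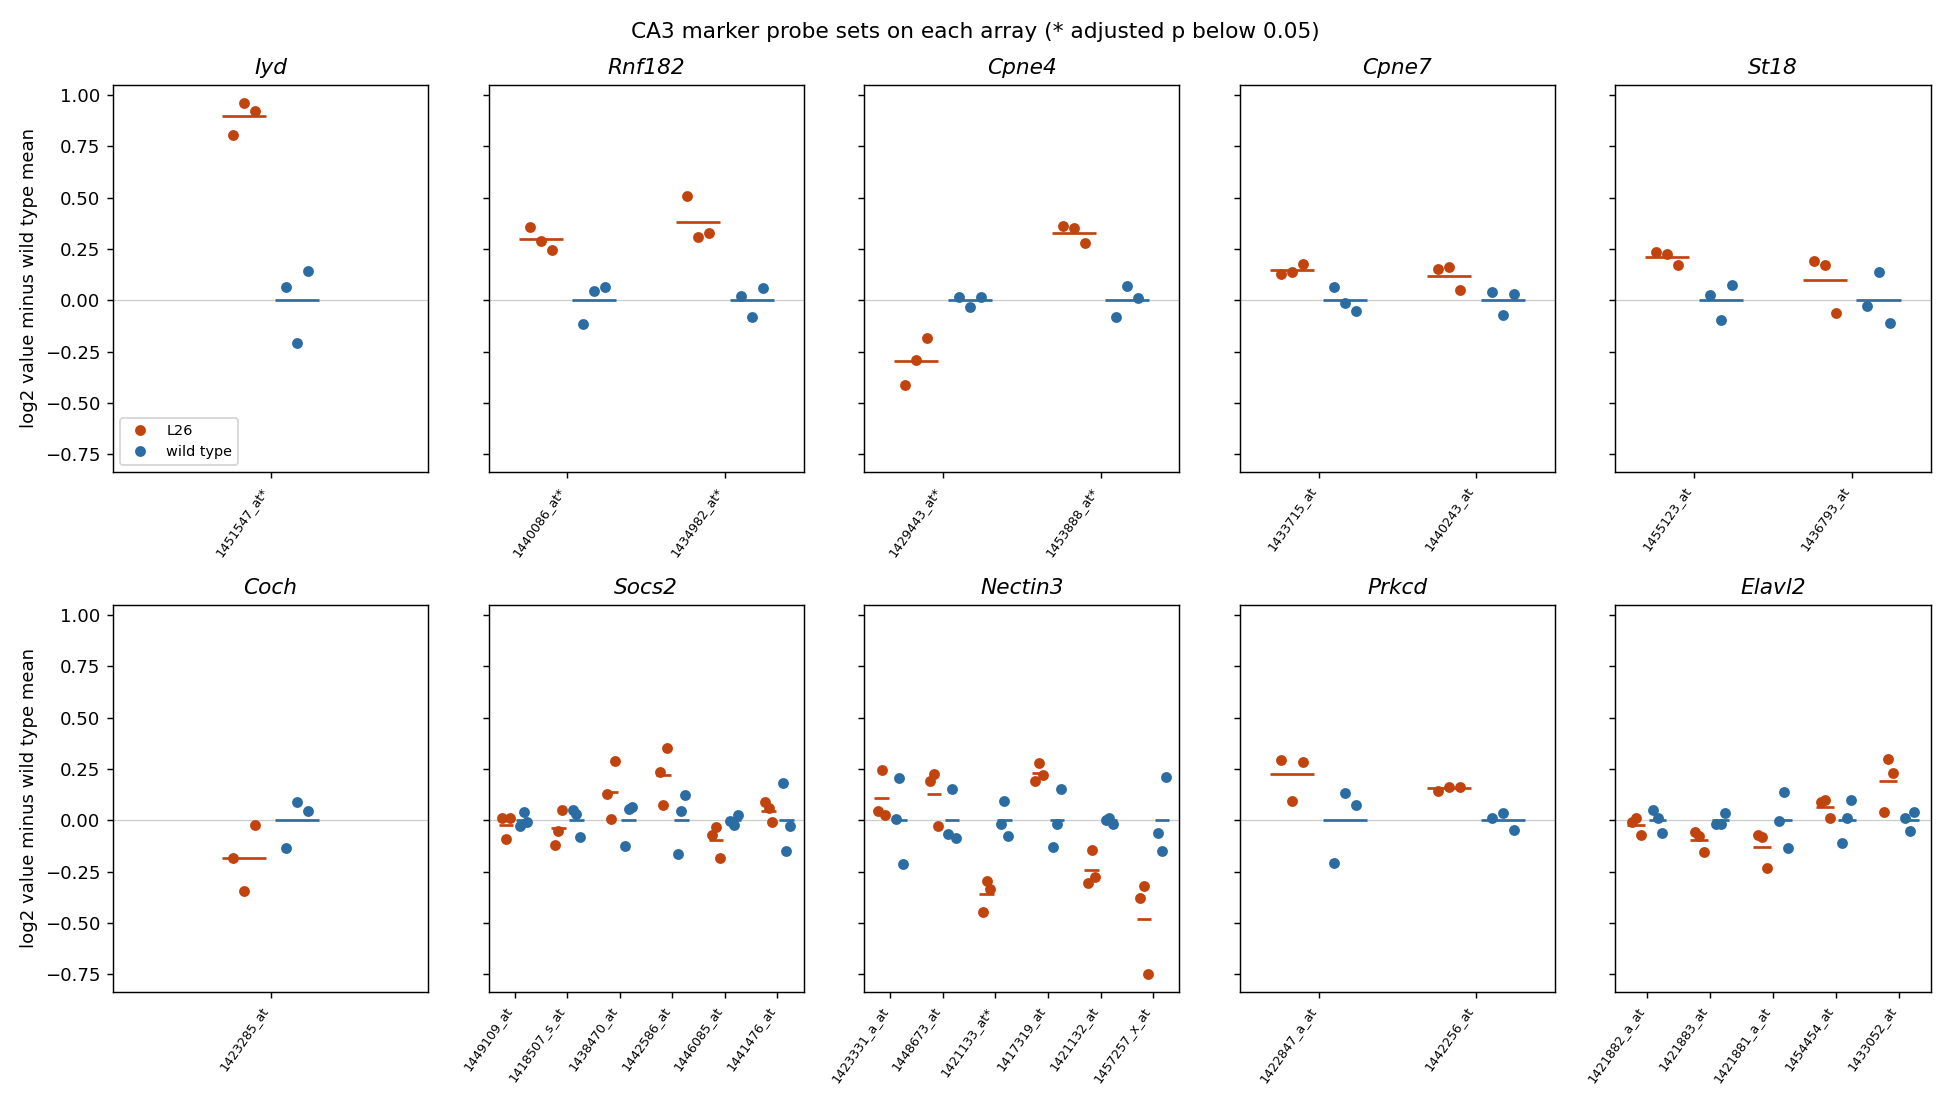
Each panel shows 1 gene, each position on the horizontal axis 1 probe set and each point 1 array (L26 left, wild type right), as the log2 value minus the probe set's wild type mean, with lines at group means and stars at probe sets that passed. The L26 points of Iyd stand apart by 0.90 on average, while Cpne4, Socs2, Nectin3 and Elavl2 hold probe sets on both sides of 0.

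The copines bind phospholipid membranes when calcium rises, and 2 of the members belong to this family. For Cpne4 the brighter probe set, 1429443_at, read 10.51, 10.63 and 10.74 in L26 hippocampi, against 10.94, 10.89 and 10.94 in wild type hippocampi. The dim one, 1453888_at, read 6.24, 6.23 and 6.16 in L26 hippocampi and 5.80, 5.95 and 5.89 in wild type hippocampi. The groups did not overlap for either, but the sides were opposite. The brighter probe set fell by 0.30 (SE 0.07, limma adjusted p = 0.0461) and the dim one rose by 0.33 (SE 0.06, adjusted p = 0.018). The mean of the dim one lies close to 5.95, the lower quartile of all probe set means. The gap between the 2 probe sets on the same array ran from 4.27 to 4.58 in L26 and from 4.94 to 5.14 in wild type hippocampi. Its group difference of -0.63 had an exact two-sided permutation p of 0.1, the smallest that 3 arrays against 3 allow (0.15 adjusted over 6 such comparisons). Because the 2 probe sets each separated the groups, on opposite sides, their gap had to separate the groups too. That p was therefore fixed in advance and adds nothing to the 2 calls. The fall was lost without any array except L26 replicate 3 (adjusted p-values 0.0956 to 0.128) and after a repeated quantile normalization (adjusted p = 0.0579) or array weights (adjusted p = 0.0507). The rise was lost without any array except wild type replicate 2 (adjusted p-values 0.0526 to 0.0728).

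For Cpne7 both probe sets had every L26 value above every wild type value, but neither passed. Probe set 1433715_at read 10.73, 10.74 and 10.78 in L26 and 10.67, 10.59 and 10.55 in wild type hippocampi, a difference of 0.15 (SE 0.06, limma adjusted p = 0.211). The other, 1440243_at, differed by 0.12 (SE 0.06, adjusted p = 0.342). Of 7 further copine genes measured (each gene by its brightest probe set from here on) 0 passed with limma and 2 had an unadjusted p below 0.05. Those were Cpne5, with a difference of -0.26 (SE 0.08, adjusted p = 0.103), and Cpne9, with 0.33 (SE 0.10, adjusted p = 0.11).

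Nectin3 is an immunoglobulin-like adhesion molecule of cell junctions, including those beside mossy fibre synapses. Its 6 probe sets fell on both sides of 0. The one that passed, 1421133_at, read 6.85, 7.0 and 6.96 in L26 hippocampi, against 7.28, 7.39 and 7.22 in wild type hippocampi. It fell by 0.36 (SE 0.07, limma adjusted p = 0.0194). Probe sets 1421132_at and 1457257_x_at also had every L26 value below every wild type value, with differences of -0.24 (SE 0.06, adjusted p = 0.0616) and -0.48 (SE 0.12, adjusted p = 0.0693). The first of these passed once arrays were centred on their medians (adjusted p = 0.0391) or quantile-normalized again (adjusted p = 0.0463). The second is among the dimmest 4.90% of probe sets and, by its suffix, open to related transcripts, and it passed with an intensity trend and robust prior (adjusted p = 0.0374).

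The 2 brightest Nectin3 probe sets had no lower mean in L26. Probe set 1423331_a_at read 9.88, 10.08 and 9.86 in L26 and 9.84, 10.04 and 9.62 in wild type hippocampi, and 1448673_at read 9.96, 9.99 and 9.74 in L26 and 9.70, 9.92 and 9.68 in wild type hippocampi. The groups overlapped for both, with differences of 0.11 (SE 0.11, limma adjusted p = 0.661) and 0.13 (SE 0.09, adjusted p = 0.497). Another, 1417319_at, had every L26 value above every wild type value (difference 0.23, SE 0.08, adjusted p = 0.143). Set against these 3 on the same arrays, 1421133_at differed between the groups by -0.47, -0.49 and -0.59 (exact permutation p = 0.1 each, 0.15 adjusted). For 1417319_at, which separated the groups on the opposite side, that p was fixed in advance. Against 1421132_at and 1457257_x_at it differed by -0.12 (exact permutation p = 0.2, 0.24 adjusted) and 0.12 (exact permutation p = 0.7, also the adjusted value). The call of 1421133_at was lost without L26 replicate 1, L26 replicate 3, wild type replicate 1 or wild type replicate 2 (adjusted p-values 0.0506 to 0.0701). Among 7 nectins, nectin-like molecules and the nectin partner Afdn, 0 passed with limma and 1 had an unadjusted p below 0.05, Cadm4, with -0.18 (SE 0.05, adjusted p = 0.0987). Nectin4 had -0.12 (SE 0.07, adjusted p = 0.374).

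**Figure D2:**
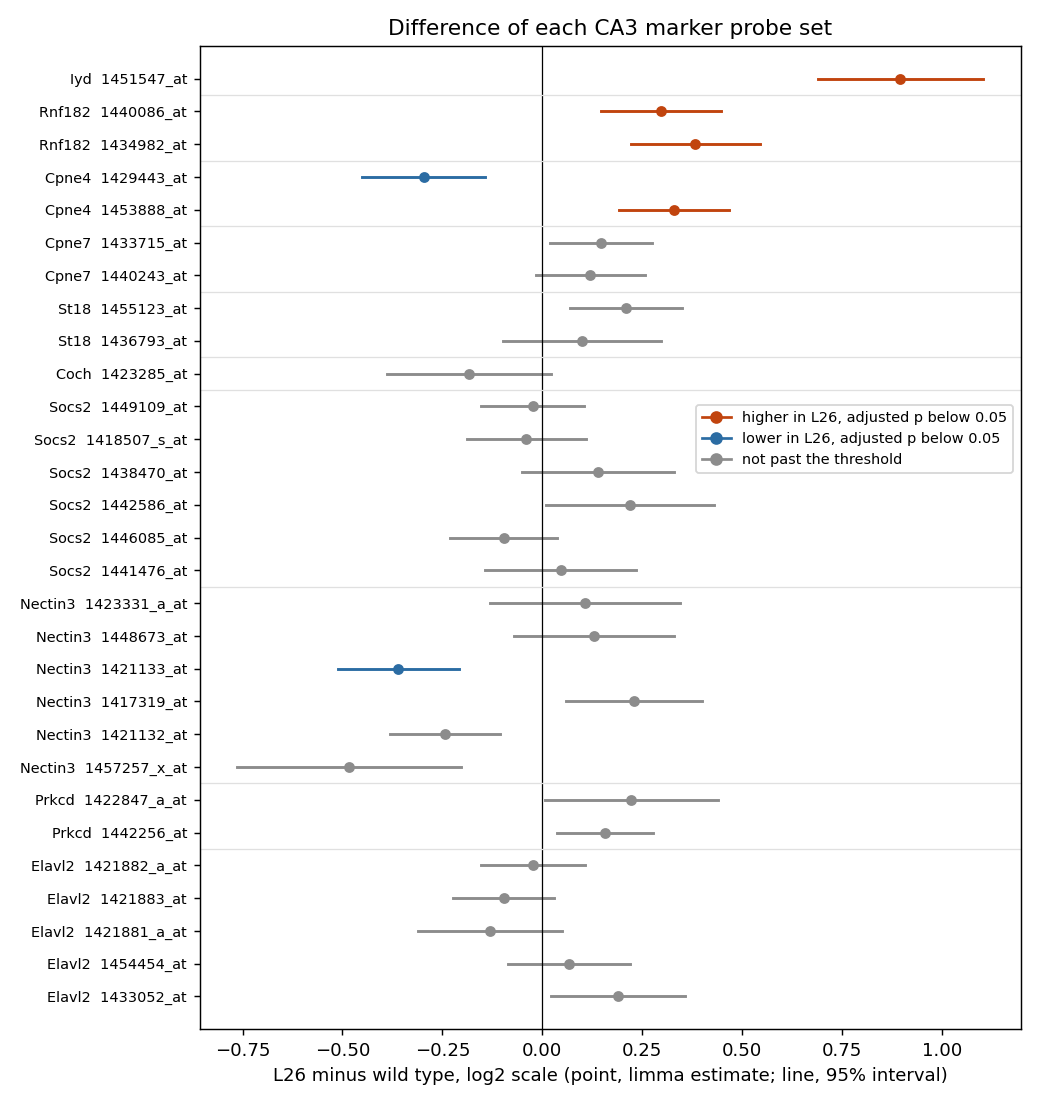
Points give the L26 minus wild type difference of each of the 29 probe sets on the log2 scale and lines its 95% interval from limma. Only the Iyd interval (0.69 to 1.10) lies wholly above 0.5, and the 6 Nectin3 probe sets spread from -0.48 to 0.23.

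St18 is a zinc finger transcription factor of the Myt1 family. Its probe set 1455123_at read 9.06, 9.05 and 9.0 in L26 hippocampi, against 8.85, 8.73 and 8.90 in wild type hippocampi. The groups did not overlap, yet the difference of 0.21 (SE 0.06) did not pass (limma adjusted p = 0.106) and passed in 0 of 14 alternatives. The other St18 probe set, 1436793_at, overlapped between the groups (difference 0.10, SE 0.09, adjusted p = 0.616). Its relatives Myt1 and Myt1l had differences of 0.17 (SE 0.06, adjusted p = 0.16) and 0.13 (SE 0.05, adjusted p = 0.239), and 0 of these 2 passed with limma, while both had an unadjusted p below 0.05. Other Myt1l probe sets disagreed, with one higher by 0.37 (SE 0.05, adjusted p = 0.00626) and another at -0.09 (SE 0.05, adjusted p = 0.414).

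Prkcd, the delta isoform of protein kinase C, read 8.85, 8.65 and 8.84 in L26 and 8.35, 8.69 and 8.63 in wild type hippocampi on 1422847_a_at. Those groups overlapped (difference 0.22, SE 0.10, limma adjusted p = 0.258). On 1442256_at it read 6.85, 6.87 and 6.87 in L26 and 6.72, 6.74 and 6.66 in wild type hippocampi, without overlap (difference 0.16, SE 0.05, adjusted p = 0.156). Neither passed. Of 7 other protein kinase C genes 0 passed with limma and 3 had an unadjusted p below 0.05, led by Prkch (0.23, SE 0.06, adjusted p = 0.0603) and Prkcq (0.30, SE 0.08, adjusted p = 0.0938). The remaining one, Prkca, had a negative difference (-0.12, SE 0.05, limma adjusted p = 0.245).

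No probe set of the remaining members, Coch, Socs2 and Elavl2, passed. Coch, the gene of cochlin, an extracellular matrix protein of the inner ear, read 7.87, 7.71 and 8.03 in L26 and 7.92, 8.14 and 8.10 in wild type hippocampi, with overlap (difference -0.18, SE 0.09, limma adjusted p = 0.333). Socs2, a feedback inhibitor of growth hormone and cytokine signalling, read 9.89, 9.79 and 9.89 in L26 and 9.85, 9.92 and 9.87 in wild type hippocampi on its brightest probe set, 1449109_at. That is a difference of -0.02 with a 95% interval of -0.15 to 0.11. The other Socs2 probe sets ranged from -0.10 to 0.22, the highest on 1442586_at (adjusted p = 0.253). Of 13 other SOCS and JAK-STAT genes 0 passed with limma and 2 had an unadjusted p below 0.05, Socs5 (-0.18, SE 0.07) and Stat5a (0.19, SE 0.08).

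Elavl2 encodes HuB, a neuronal RNA-binding protein that stabilises transcripts. Its brightest probe set, 1421882_a_at, read 11.99, 12.01 and 11.93 in L26 and 12.05, 12.01 and 11.94 in wild type hippocampi, a difference of -0.02 with a 95% interval of -0.15 to 0.11. The 3 brighter Elavl2 probe sets had differences between -0.13 and -0.02 and the 2 dimmer ones 0.07 and 0.19. The lowest adjusted p among the 5 was 0.214, on 1433052_at. Of its 3 relatives 0 passed with limma and 1, Elavl4, had an unadjusted p below 0.05 (difference -0.15, SE 0.06, adjusted p = 0.208), while Elavl1 had 0.09 (SE 0.06, adjusted p = 0.448).

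Other genes that mark CA3 or the neighbouring CA2 field were read alongside. Of 23 measured, 3 rose (Bok, Grik4 and Homer3), 1 fell (S100b) and 19 did not pass, against 4.25% of all 18193 genes that passed, 2.07% higher and 2.18% lower. Bok, a Bcl2 family gene, averaged 10.35 ± 0.02 in L26 and 9.96 ± 0.04 in wild type hippocampi (SD, n = 3 each), a difference of 0.39 (SE 0.05, limma adjusted p = 0.00421), and it passed in all 14 alternatives. Grik4, a kainate receptor subunit gene concentrated in CA3, read 9.40, 9.34 and 9.35 in L26 and 9.09, 9.10 and 9.05 in wild type hippocampi (difference 0.28, SE 0.05, adjusted p = 0.0199). The scaffold gene Homer3 rose by 0.34 (SE 0.07, adjusted p = 0.036). S100b, a calcium-binding protein gene better known from astrocytes, fell by 0.28 (SE 0.05, adjusted p = 0.0234). The other S100b probe set did not pass (-0.19, SE 0.07, limma adjusted p = 0.178). Without any single array other than wild type replicate 3, 1 of these genes was called higher and 0 lower. Median differences were 0.13 over the 10 members, 0.12 over these 23 genes and 0.01 over all genes.

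Markers of other principal cells of the hippocampus were read in the same way. For 14 CA1 markers the median difference was 0.11, with 2 that rose, Fibcd1 (0.45, SE 0.06, limma adjusted p = 0.00387) and Lefty1 (0.73, SE 0.10, adjusted p = 0.00491), and 0 that fell. For 20 dentate granule cell markers it was 0.07, with 4 that rose, led by Lct (0.58, SE 0.09) and C1ql2 (0.43, SE 0.07), and 2 that fell, the activity-induced Btg2 (-0.87, SE 0.13) and Plk5 (-0.35, SE 0.08). Without each single array in turn 2 dentate markers were called higher, and 1 lower except without L26 replicate 3, where 2 were. Of 8 mossy cell markers 0 passed with limma, 2 had an unadjusted p below 0.05 (Ociad2, 0.19, SE 0.07, and Fgf1, 0.15, SE 0.06) and the median was 0.05. Of 11 pan-neuronal markers 0 passed, none had an unadjusted p below 0.05 and the median was -0.05, with Rbfox3 at -0.12 (SE 0.05) and Nefh at -0.10 (SE 0.06). Of 9 interneuron markers 0 passed with limma and 4 had an unadjusted p below 0.05, led by Pvalb (-0.30, SE 0.07, adjusted p = 0.0594) and Sst (0.20, SE 0.06, adjusted p = 0.121). The others were Npy (-0.16, SE 0.05) and Gad1 (-0.17, SE 0.07). No difference between these lists was tested.

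**Figure D3:**
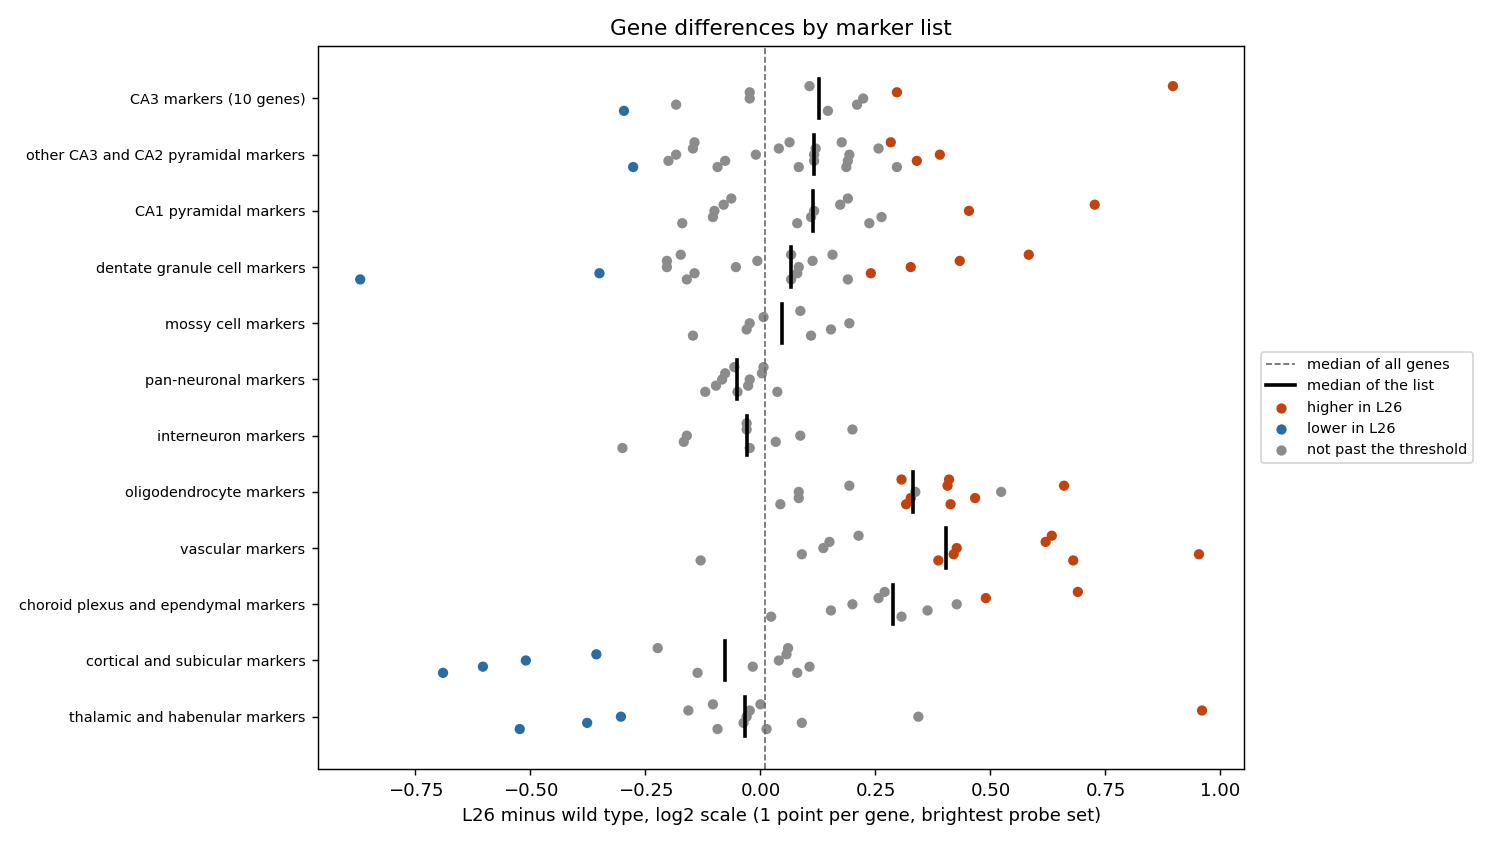
Each point is the L26 minus wild type difference of 1 gene on the log2 scale, thick bars are list medians and the dashed line is the median of all genes (0.01). The medians of the CA3, other CA3 and CA2, and CA1 lists lie between 0.11 and 0.13, and those of the oligodendrocyte and vascular lists at 0.33 and 0.40.

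Markers of other cells moved on the same arrays. The mean level of the 10 members per array ran from 9.66 to 9.69 in L26 and from 9.51 to 9.55 in wild type hippocampi, a mean difference of 0.14. Without Iyd, an alternative chosen after seeing the data, the mean over the other 9 ran from 9.89 to 9.93 in L26 and from 9.82 to 9.90 in wild type hippocampi, so that the groups overlapped, and the mean difference was 0.05. That of 14 oligodendrocyte markers ran from 11.12 to 11.33 in L26 and from 10.86 to 10.96 in wild type hippocampi, all 14 with a positive difference, and 8 rose, led by Mal (0.66, SE 0.09, limma adjusted p = 0.0045), Olig2 (0.33), Cnp (0.41) and Mobp (0.41). Of 12 vascular markers 11 had a positive difference and 7 rose, led by Cldn5 (0.95, SE 0.08, adjusted p = 0.000286), Rgs5 (0.62), Pdgfrb (0.68) and Kdr (0.63). Mean levels of the 12 were 9.16 to 9.24 in L26 and 8.81 to 8.84 in wild type hippocampi. The other Pdgfrb probe set did not pass (0.12, SE 0.08, limma adjusted p = 0.504). The thalamic and habenular markers, of interest because Prkcd is also a thalamic gene, overlapped between the groups (8.02 to 8.05 in L26 and 7.96 to 8.15 in wild type hippocampi). Of these 14, Zic1 rose (0.96) and Ntng1 (-0.52), Slc17a6 (-0.38) and Rora (-0.30) fell. Other Rora probe sets disagreed, from -0.42 (limma adjusted p = 0.0107) to 0.15 (limma adjusted p = 0.333), and most did not pass. Mean levels of 12 cortical and subicular markers ran from 9.25 to 9.28 in L26 and from 9.39 to 9.49 in wild type hippocampi. Of these 12, 4 fell, Ccn2 (-0.69), Tshz2 (-0.60), Satb1 (-0.36) and Lamp5 (-0.51). Other Satb1 probe sets ran from -0.52 (limma adjusted p = 0.00123) to 0.02 (limma adjusted p = 0.945). Mean levels of 10 choroid plexus and ependymal markers overlapped (9.03 to 9.89 in L26 and 8.81 to 9.43 in wild type hippocampi), with Tmem212 (0.69) and Ccdc153 (0.49) higher. The part of these cells in the results of the CA3 markers was not tested. Of 10 astrocyte markers 0 passed with limma and 2 had an unadjusted p below 0.05, Slc1a2 (0.21, SE 0.05) and Aqp4 (0.16, SE 0.06). Of 9 microglia markers C1qb (0.29) and C1qc (0.40) rose and P2ry12 (-0.30) fell. The other C1qb probe sets, at 0.25 and 0.29, did not pass (limma adjusted p = 0.126 and 0.148). The number of oligodendrocyte markers called higher was 1 without L26 replicate 2 or 3, 2 without wild type replicate 1 or 3, 5 without wild type replicate 2 and 10 without L26 replicate 1. That of vascular markers ran from 5 to 7 without single arrays.

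The pattern of each called member over the 6 arrays was set against that of 16437 other named genes, by Pearson's r, as a description in which the step between the groups dominates. For Iyd the 3 most alike were Tmco1 (r = 0.995), Nmrk2 (r = 0.995) and Chst9 (r = 0.993), and 219 genes had an r above 0.95. For Rnf182 on 1440086_at they were Gimap3, Hdhd2 and Rbfox1 (r = 0.998 each), for Cpne4 on 1429443_at Col23a1 (r = 0.998), Cst3 (r = 0.993) and Fras1 (r = 0.993), and for Nectin3 on 1421133_at Arhgap32 (r = 0.995), Tcap (r = 0.991) and Marchf1 (r = 0.991). The numbers of genes with an r above 0.95 were 170 for Rnf182, 92 for Cpne4 and 149 for Nectin3. Of the like genes named, Tmco1, Chst9, Col23a1 and Marchf1 passed with limma and the others did not. The called members lie on chromosomes 10 (Iyd), 13 (Rnf182), 9 (Cpne4) and 16 (Nectin3). Of the 24 nearest measured genes, 3 on either side of each, 2 passed, against 4.25% of all genes by their brightest probe set. These were Mthfd1l, the second measured gene past Iyd in coordinate order (-0.28, SE 0.07, limma adjusted p = 0.0498), and Plcxd2, the second measured gene before Nectin3 (-0.50, SE 0.08, adjusted p = 0.00776). None of the 6 neighbours of Rnf182 or of the 6 of Cpne4 passed.

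Array medians lay between 7.27 and 7.32, and correlations across probe sets were at least 0.997 within a group and at most 0.996 between groups. Kcnip3 read 10.15, 10.09 and 10.20 in L26 and 10.38, 10.36 and 10.21 in wild type hippocampi on 1418544_at (difference -0.17, SE 0.07, limma adjusted p = 0.208). On 1449129_a_at it read 9.17, 9.26 and 9.18 in L26 and 9.51, 9.64 and 9.41 in wild type hippocampi and fell by 0.32 (SE 0.07, adjusted p = 0.0393). That fall passed in 8 of 13 alternatives, with limma adjusted p-values from 0.017 to 0.141. Whether either probe set reads the transgene is not known here. Among genes that define hippocampal fields, the brightest probe set of Wfs1 (CA1) lay at the 93.1 percentile of all probe sets. That of Grik4 (CA3) lay at the 77.1 percentile and that of Prox1 (dentate gyrus) at the 60.8 percentile. Without a comparison tissue such ranks cannot check the tissue label.

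**Figure D4:**
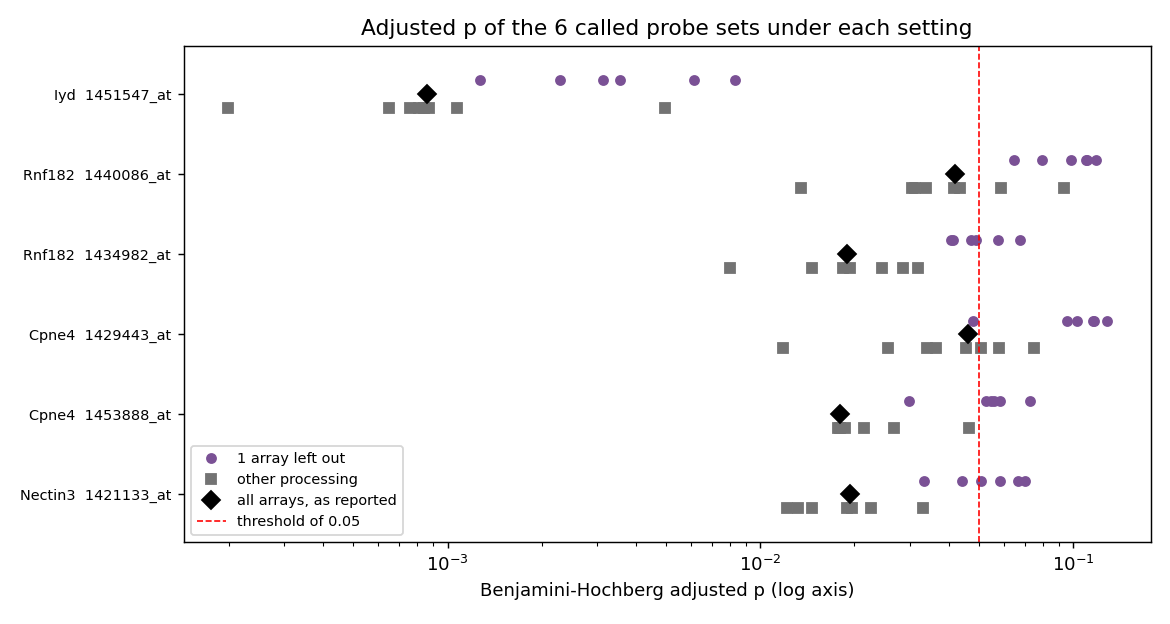
The adjusted p of each of the 6 called probe sets is plotted on a log axis, with all arrays (diamonds), with 1 array left out (circles) and with other processing (squares), against the threshold of 0.05 (dashed). All Iyd points lie at or below 0.00828, and each of the other 5 probe sets has points on both sides of the threshold.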

How the data were processed

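Expression was deposited on a log2 scale. The submitters' processing notes name RMA and affy, without versions. Such values carry no detection calls and tend to compress differences of dim transcripts. All 6 columns were used. Of 45101 probe sets 64 array controls were left out, and 45037 were tested, dim ones included. By the platform annotation 34945 had a single symbol, and only these were named, while 932 had several and 9160 had none. Symbols were checked by Entrez identifier against RefSeq (GRCm38.p6). For gene lists a gene stood for itself through its brightest probe set, judged on the mean of the 6 arrays (18193 genes). For several named genes some of the other probe sets did not pass.

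The contrast, L26 minus wild type, was tested two-sided by limma (version 3.58.1, under R version 4.3.3; functions lmFit and eBayes), with Benjamini-Hochberg adjustment over the 45037 probe sets and a threshold of 0.05. Standard errors and 95% intervals come from that fit. Probe sets of 1 gene were compared by exact permutation tests, in pairs picked by their calls in these same data. The number of arrays limits the precision. The labels do not say that each array is 1 animal, so p-values measure the spread between these samples.

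The members, lists and alternatives were chosen with earlier results of these data known. The text names every member probe set, up to 4 members with the smallest p past the threshold of each other list, or 2 where none passed, the 3 genes most like each called member, and their passing neighbours. Beyond that rule, Npy, Gad1 and Prkca are named for an unadjusted p below 0.05. Alternatives were a replicate block, each array left out, a repeated quantile normalization, median centring, weighting of arrays, a fit on the brighter probe sets only (without the lowest 40%), eBayes with trend and robust options, omission of names in _x_at or _s_at, and 1 probe set per gene. The code was tested on simulated data with known changes.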

Additional observations from a re-analysis of the deposited data

How the results depend on the processing

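Of 380 member values under 14 alternatives, 344 kept direction and side of the threshold, 3 were exactly 0 without a call, 27 lost a call, 3 gained one and 3 changed sign without a call. The sign changes were Socs2 1449109_at without L26 replicate 2 (0.01), Socs2 1441476_at without wild type replicate 2 (-0.03) and Elavl2 1421882_a_at without wild type replicate 1 (0.0017). Without single arrays Socs2 1449109_at ran from -0.04 to 0.01, Socs2 1441476_at from -0.0283 to 0.1367 and Elavl2 1421882_a_at from -0.0533 to 0.0017. Leaving out 1 array at a time gave 1 to 2 member probe sets called higher and 0 to 1 called lower, with fewer arrays in each fit. With 1 probe set per gene, where 10 member probe sets were left, 2 were higher and 1 lower. With array weights 1 was lower. The replicate numbers did not pair the samples (correlations of same-numbered deviations -0.04, -0.07 and 0.15, and 1 of 3 L26 arrays correlated best with its own number). With the replicate block 3 member probe sets were higher and 1 lower, and 645 and 685 of all probe sets were, against 892 and 872 without it. The member probe sets not called in that fit were Rnf182 1440086_at (adjusted p = 0.0935) and Cpne4 1429443_at (adjusted p = 0.0748). Arrays centred on their medians gave 717 higher and 1149 lower over all probe sets (38.4% higher, against 50.6%), with 3 members each way. Without L26 replicate 3 the totals were 356 and 454, and without L26 replicate 2 they were 420 and 548. Of 532 counts of other lists under these alternatives 62 moved, by over 1.5 times or to or from 0, 49 of them to fewer calls. The causes were not tested. Low signal limits the dim probe sets, for which no detection calls exist.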
